A study of Mus musculus with 2 samples.

Results

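Mir33, Mir103-1, Mir103-2, Mir107 and Gm25301 are 5 of the 1973 gene rows of the deposited tables, and they were chosen by name because each hairpin lies in an intron of a gene of lipid, coenzyme A or energy metabolism. Srebf2 hosts Mir33, the pantothenate kinase genes Pank3, Pank2 and Pank1 host Mir103-1, Mir103-2 and Mir107, and the locus of Ppargc1b holds Gm25301. The row of Gm25301 lies on the strand opposite to Mir378a, which has no row of its own, so its counts were read on the strand of Mir378a. All 5 names were found in both libraries. Abundance was measured by microRNA sequencing of total RNA from whole liver of B6NCrl mouse embryos at embryonic day 16.5, with no genetic change or treatment given in the labels. There was 1 group of 2 biological replicates, each a pool of livers of both sexes; replicate 2 pooled 41 embryos, and the labels give no number for replicate 1. Whole liver mixes hepatocytes with blood-forming, vascular and stromal cells, so fewer cells of a type and less RNA per cell cannot be told apart.

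MicroRNAs are short RNAs that pair with messenger RNAs mainly through the seed, bases 2 to 8 counted from the 5′ end, and lower their translation and stability. An intronic microRNA is cut from the transcript of its host, so its production is tied to transcription of the host gene unless it has a promoter of its own. Srebf2 encodes SREBP-2, the transcription factor that switches on cholesterol synthesis, and miR-33 represses the cholesterol exporter Abca1 and enzymes of fatty acid oxidation. Pantothenate kinases carry out the first step of coenzyme A synthesis, and miR-103 and miR-107 dampen insulin signalling in mouse liver and fat. Ppargc1b encodes PGC-1β, a coactivator of mitochondrial and lipid genes, and miR-378a acts on mitochondrial energy use. The host messenger RNAs were not measured in these libraries.

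The mature sequences show which reads can be told apart between the 5 genes. They are from RefSeq on GRCm38.p6, written 5′ to 3′ with the seed in capitals; 4 of the 5 genes matched that table by symbol, and Gm25301 did not.
mmu-miR-33-5p: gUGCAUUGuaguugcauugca
mmu-miR-33-3p: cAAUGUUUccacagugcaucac
mmu-miR-103-3p: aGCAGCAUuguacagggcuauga
mmu-miR-107-3p: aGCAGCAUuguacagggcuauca
mmu-miR-103-1-5p: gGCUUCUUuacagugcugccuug
mmu-miR-103-2-5p: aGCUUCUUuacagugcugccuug
mmu-miR-107-5p: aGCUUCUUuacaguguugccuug

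Both 3′ arms of the pantothenate kinase genes share the seed GCAGCAU, and their 5′ arms share GCUUCUU. With positions counted from the 5′ end and the base of the first-named arm first, miR-103-3p and miR-107-3p differ by the single substitution G22C. The 5′ arms of Mir103-1 and Mir103-2 differ by G1A, and those of Mir103-2 and Mir107 by C16U. The seeds of the miR-33 arms, UGCAUUG and AAUGUUU, did not recur, and 0 genes of the RefSeq table outside the 5 carried any of the 4 seeds.

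The hairpins of the 3 pantothenate kinase genes are shown because the flanks of the arms decide where a read can be placed. Mature arms are in capitals, and each hairpin is written on its own strand of GRCm38.p6.
Mir103-1: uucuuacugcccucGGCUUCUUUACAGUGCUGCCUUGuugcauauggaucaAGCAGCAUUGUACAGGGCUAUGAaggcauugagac
Mir103-2: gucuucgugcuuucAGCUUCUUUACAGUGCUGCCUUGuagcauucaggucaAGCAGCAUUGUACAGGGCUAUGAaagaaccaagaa
Mir107: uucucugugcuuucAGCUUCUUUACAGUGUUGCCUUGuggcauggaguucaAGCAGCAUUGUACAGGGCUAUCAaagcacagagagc

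The 23 bases of miR-103-3p stand in both Mir103 hairpins. A read that starts at its first base must reach 25 bases before it differs between Mir103-1 and Mir103-2, which is longer than the mature arm. For miR-107-3p, a read from the first base must reach 22 of 23 bases before it differs from miR-103-3p. Reads of either miR-33 arm are found in no other miRNA gene from 15 bases on, the shortest length examined. At a length of 18 bases, 22 of 69 words of the Mir103-2 hairpin (31.9%), 16 of 69 of Mir103-1 (23.2%) and 13 of 70 of Mir107 (18.6%) also occurred in another miRNA gene, in each case a hairpin of the same trio. None of the 52 words of Mir33 did, and 3 of 96 words on the Mir378a strand of Gm25301 did, in Mir378b or Mir378c. At 22 bases the shared words fell to 10 of 65 for Mir103-2, 8 of 65 for Mir103-1, 5 of 66 for Mir107 and 0 of 92 for Gm25301. Reads that map to several places are in a separate tally of the deposited tables (28.1% and 28.2% of all reads in replicates 1 and 2) and not in the gene counts. That tally is not split by miRNA, so how many of its reads came from miR-103-3p or miR-107-3p was not tested, and the counts of these 3 genes may be low.

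**Figure D1:**
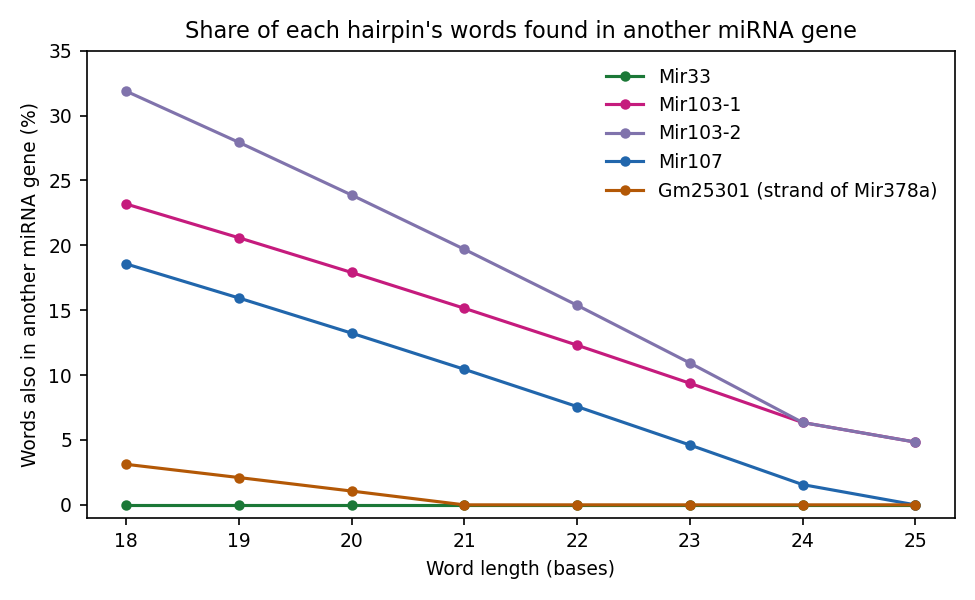
Share of the words of each hairpin (vertical axis, percent) that also occur in another GENCODE M21 miRNA gene on either strand, by word length in bases (horizontal axis). Lines are the 5 genes. Mir103-2 starts highest at 31.9% and Mir33 stays at 0% at all lengths from 18 to 25 bases.

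In the annotation all 5 hairpins were intronic on the strand that was counted. Mir33 (ENSMUSG00000065465.1, mm10 chr15:82198122-82198190, plus strand) lies in intron 16 of the 19-exon principal transcript of Srebf2, 335 bases after the upstream exon. Mir103-1 (ENSMUSG00000065553.1, chr11:35782396-35782481, plus strand) lies in intron 5 of Pank3, Mir103-2 (ENSMUSG00000065563.1, chr2:131288052-131288137, plus strand) in intron 5 of Pank2, and Mir107 (ENSMUSG00000065594.1, chr19:34820687-34820773, minus strand) in intron 5 of Pank1. The principal transcripts of these 3 hosts have 7 exons each, so the 3 hairpins share their place in the host, although the introns measure 1740, 5801 and 7282 bases. Gm25301 (ENSMUSG00000093026.1, chr18:61397813-61397925, plus strand) spans Mir378a (chr18:61397835-61397900, minus strand). Both lie within intron 1 of the minus-strand host Ppargc1b, 2506 bases from its start in an intron of 76981 bases.

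**Figure D2:**
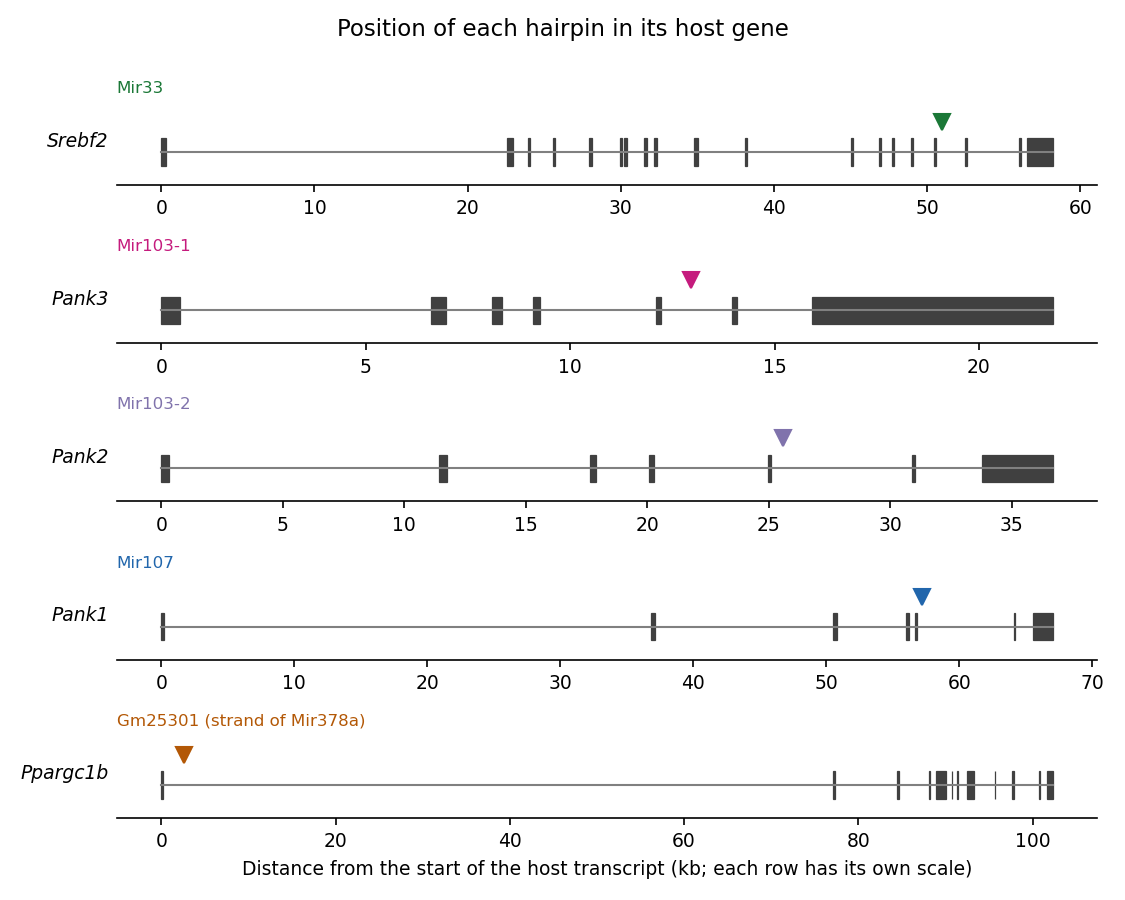
Exons (dark boxes) and introns (line) of the host transcript of each gene, drawn as distance from the transcript start in kb, with a triangle at the hairpin. Mir103-1, Mir103-2 and Mir107 sit in intron 5 of 7-exon transcripts, and the Gm25301 locus sits in intron 1.

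The libraries held 5930074 counts in replicate 1 and 5102289 in replicate 2 on the annotated strand of the listed genes, and levels are given as CPM, the counts per 1000000 of that total, so that a single count equals 0.169 and 0.196 CPM in replicates 1 and 2. The hepatocyte marker Mir122 led all rows, at 213274 and 214555 CPM in the libraries. The erythroid markers Mir451a and Mir144 summed to 23344 and 26693 CPM. Of the 2 leukocyte markers, Mir223 was at 16769 and 17529 CPM and Mir150 at 23.8 and 25.3 CPM. The neural marker Mir9-2 had no count. The muscle markers Mir1a-1 and Mir133b had 0 and 88 counts in replicate 1 and 1 and 62 in replicate 2. Mir9-2 and Mir1a-1 have other genomic copies of the same mature arm, whose reads may be in the multimapping tally, so their counts do not show a low level. Markers of hepatocytes and of blood cells were thus detected, with Mir150 far below Mir223. The skeletal muscle miRNA Mir206 was at 1104 and 2050 CPM.

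Together the counts of the 5 genes equalled 0.918% of the total used for CPM in replicate 1 and 0.835% in replicate 2. That total holds no count of the Gm25301 locus, whose reads lie on the opposite strand of its row; with them it comes to 5973218 and 5136959. The locus made up 79.2% and 81.4% of that sum, so the group is mostly the strand of Mir378a. It had 43144 counts in replicate 1 and 34670 in replicate 2, which is 7275 CPM (95% exact Poisson interval 7207 to 7344) and 6795 CPM (6724 to 6867). Both values lie far above those of the other 4 genes. Its mean of 7035 ± 340 CPM (SD, n = 2) ranked 35 among all 1973 rows, between Mirlet7d at 7571 ± 275 CPM and Mir106b at 6810 ± 591 CPM. Its values overlapped the range of Mir106b (7228 and 6391 CPM) and lay just below that of Mirlet7d (7765 and 7376 CPM). The rank takes the locus on the opposite strand of its row and every other row on its own strand.

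The strand of the Gm25301 row itself had 0 counts in both libraries, a count that allows up to 0.506 CPM in replicate 1 and 0.588 CPM in replicate 2. Every read of the row was thus on the strand of Mir378a and of the host Ppargc1b. Opposite-strand counts were held by few rows, 59 in replicate 1 and 56 in replicate 2. They summed to 524695 and 456675 counts, outside the total used for CPM. In 20 and 21 rows they exceeded the counts on the row's own strand. The Gm25301 row ranked 4 among them in both libraries, with 8.22% and 7.59% of all such counts. The other 4 genes showed the reverse layout, with no count opposite to their hairpins in either library. The miR-378 genes at other loci had far fewer counts on their own strand. Mir378d was at 15.9 and 11.2 CPM, Mir378c at 7.08 and 5.88 CPM, and Mir378b at 2.36 and 2.55 CPM. Only reads placed at 1 locus are counted. Some words of up to 20 bases were shared between the Gm25301 locus and Mir378b or Mir378c, so the counts of these genes may be low.

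Mir107 had the most counts of the pantothenate kinase genes. It had 10570 in replicate 1 and 7100 in replicate 2, or 1782 CPM (1749 to 1817) and 1392 CPM (1359 to 1424). Its mean of 1587 ± 276 CPM ranked 69, between Mir543 (1594 ± 150 CPM) and Mir206 (1577 ± 669 CPM), from which it did not differ beyond the spread. Mir103-2 had 318 and 348 counts, or 53.6 CPM (47.9 to 59.9) and 68.2 CPM (61.2 to 75.8), a mean of 60.9 ± 10.3 CPM at rank 206 between Mir30c-1 (62.3 ± 2.23 CPM) and Mir34a (60.4 ± 3.08 CPM). Mir103-1 had the fewest counts of the 5 genes, 13 and 14, or 2.19 CPM (1.17 to 3.75) and 2.74 CPM (1.50 to 4.60). Its mean of 2.47 ± 0.39 CPM ranked 355, between Mir6936 (2.47 ± 1.28 CPM) and Mir378b (2.45 ± 0.13 CPM). The counts of the 3 genes thus covered a wide range, although their arms differ by 0 to 2 bases. Only reads placed at 1 locus are counted. A read from the first base of miR-103-3p needs 25 bases for that, and a read of miR-107-3p needs 22. The order of the counts is therefore not an order of mature miRNA levels.

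Within a library, Mir107 exceeded Mir103-2 by a fold of 33.2 in replicate 1 and of 20.4 in replicate 2 (log2 ratio 5.05, counting SE 0.08, and 4.35, counting SE 0.08). Mir103-2 exceeded Mir103-1 by 23.6-fold and 24.0-fold (log2 4.56, counting SE 0.40, and 4.59, counting SE 0.39). The ratio of Mir107 to Mir103-2 thus differed between the libraries by more than its counting SEs. The ratio between the Mir103 copies rests on 13 and 14 counts of Mir103-1. With SEs of 0.40 and 0.39, its close values do not show that it was steadier than the ratio of Mir107 to Mir103-2. These are ratios of reads that could be placed at 1 locus. They are not ratios of mature miR-103 to miR-107, since reads that start at the first base of the shared miR-103-3p and stop before base 25 cannot be assigned to either copy. No p-value is attached to these ratios, because the smallest that an exact sign-flip test of 2 libraries allows is 0.5, two-sided.

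Mir33 had 405 counts in replicate 1 and 485 in replicate 2, or 68.3 CPM (61.8 to 75.3) and 95.1 CPM (86.8 to 103.9). Its mean of 81.7 ± 18.9 CPM ranked 195, between Mir132 (84.6 ± 5.38 CPM) and Mir598 (80.1 ± 1.71 CPM). No word of its hairpin was shared with another miRNA gene, unlike those of the Mir103 copies. Mir33 exceeded Mir103-2 by 1.27-fold and 1.39-fold within the libraries (log2 0.35, counting SE 0.11, and 0.48, counting SE 0.10), but their means differed by little more than the SD of Mir33, so their order rests on the within-library ratios. Mir107 exceeded Mir33 by 26.1-fold and 14.6-fold, and the Gm25301 locus exceeded Mir107 by 4.08-fold and 4.88-fold. The order of the counts, Gm25301 locus, Mir107, Mir33, Mir103-2 and Mir103-1, was the same in both libraries.

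**Figure D3:**
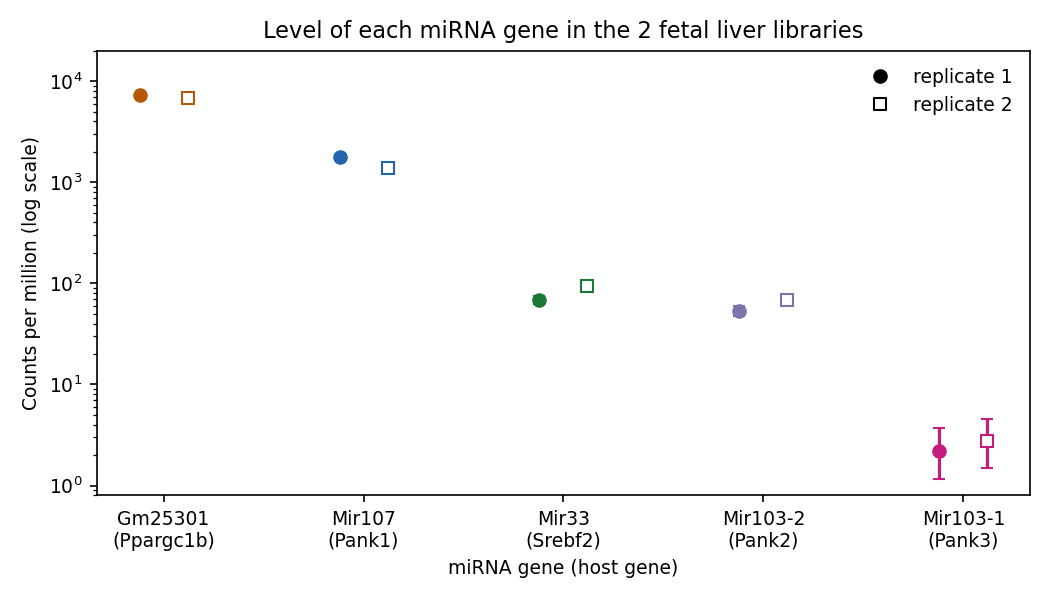
Level of each gene in CPM (vertical axis, log scale) by gene and host (horizontal axis), for replicate 1 (filled circles) and replicate 2 (open squares), with 95% exact Poisson intervals that cover counting error only. The levels descend from 7275 and 6795 CPM for the Gm25301 locus to 2.19 and 2.74 CPM for Mir103-1.

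An intron of a protein-coding gene on the same strand held 648 of the 1973 rows, and 145 of these reached 1 CPM in both libraries. All 5 genes did so. At 100 CPM the share was 57 of 648 (8.80%), against 178 of 1973 over all rows (9.02%), and the Gm25301 locus and Mir107 passed it. Among the 648 intronic rows the Gm25301 locus ranked 7, Mir107 20, Mir33 61, Mir103-2 67 and Mir103-1 123. Only the Gm25301 locus was ranked on the opposite strand of its row. Opposite-strand counts exceeded own-strand counts in 20 rows of replicate 1 and 21 of replicate 2, Gm25301 included. The rank of the locus is therefore not on equal terms with the other such rows. The counts of the 5 genes were thus spread over the detected part of the intronic range. For Mir103-1, Mir103-2 and Mir107 only reads placed at 1 locus are counted, so these are not ranks of mature miRNA levels.

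**Figure D4:**
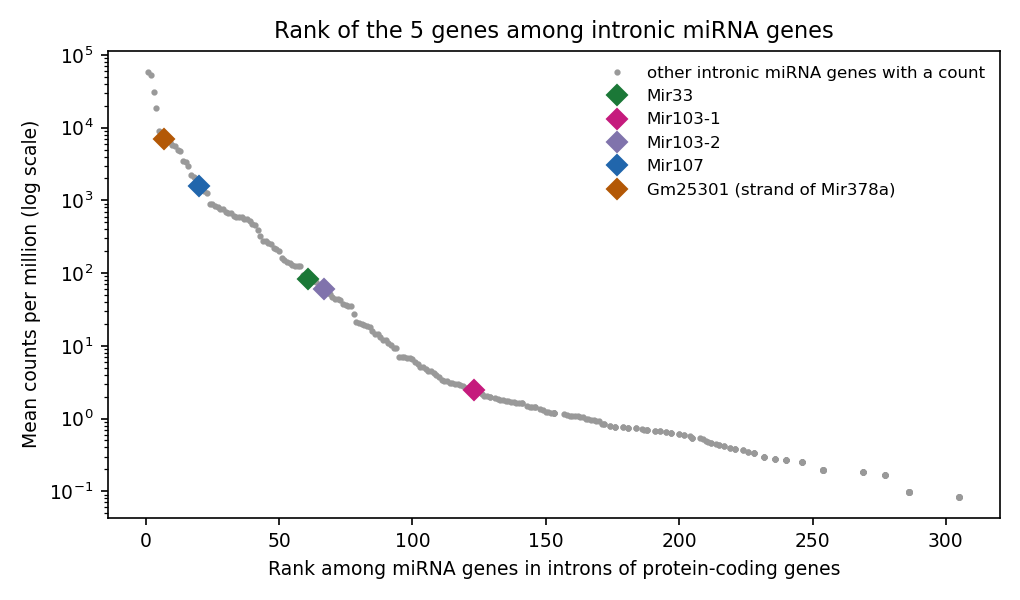
Mean CPM (vertical axis, log scale) against rank (horizontal axis) for miRNA genes in introns of protein-coding genes that had a count, with the 5 genes as diamonds. They stand at ranks 7, 20, 61, 67 and 123. Only Gm25301 is counted on the opposite strand of its row.

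The 2 libraries were compared row by row with an exact conditional binomial test of the counts, adjusted by the Benjamini-Hochberg method over the 441 rows with at least 10 counts. The test sets 1 pool against the other and covers counting error only, and it called 44.7% of the tested rows (27.2% higher and 17.5% lower in replicate 1). All 5 genes passed the count minimum and 4 were called, 2 in each direction. Of the tested rows with a mean of 10 CPM or more, 63.3% were called, so being called is the usual outcome at the depth of the 4 genes. With edgeR's TMM scaling, 97 rows were higher and 96 lower, against 120 and 77 with the total.

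Mir33 was lower in replicate 1, at 68.3 CPM against 95.1 CPM in replicate 2 (log2 ratio -0.48, counting SE 0.10, exact binomial adjusted p = 3.13e-06), a difference of 1.39-fold. Mir103-2 was also lower, at 53.6 CPM in replicate 1 against 68.2 CPM in replicate 2 (log2 -0.35, counting SE 0.11, exact adjusted p = 0.00573). Mir107 went the other way, with 1782 CPM in replicate 1 against 1392 CPM in replicate 2 (log2 0.36, counting SE 0.02, exact adjusted p = 2.47e-58). The small p of Mir107 goes with its high count, since its fold of 1.28 was close to that of Mir103-2 at 1.27. The Gm25301 locus differed least, at 7275 CPM in replicate 1 against 6795 CPM in replicate 2 (log2 0.10, counting SE 0.01, exact adjusted p = 1.43e-20), a 1.07-fold difference that was no longer called with TMM scaling (log2 0.02, adjusted p = 0.0878, the upper end of a range from 3.90e-21 over 7 alternatives). Mir103-1 gave a log2 ratio of -0.32 with a counting SE of 0.55 and was not called (exact adjusted p = 0.717), so a difference of the size seen in Mir103-2 was not detectable at its depth.

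Against the other rows these differences were moderate. A larger ratio in either direction was found in 29.7% of the tested rows for Mir33, 42.2% for Mir103-2, 41.3% for Mir107, 44.2% for Mir103-1 and 80.3% for the Gm25301 locus. Among rows of 10 CPM or more the shares were 15.7% for Mir33, 29.5% for Mir103-2, 28.5% for Mir107 and 74.7% for the locus. Marker miRNAs of liver, blood, vascular, mesenchymal and muscle cells moved between the pools too, and no neural marker of the fixed list had enough counts to be tested. Of 18 fixed markers 16 had a row and 14 were tested. The exact test called 10 as lower in replicate 1 and 1 as higher. That is 78.6% of the tested markers, beside 44.7% of all tested rows and 63.3% of those at 10 CPM or more. Of the 16 markers with a row, 10 reached 1000 CPM in both libraries, against 83 of the 441 tested rows. Both backgrounds are shallower than the markers, so the share does not show that markers moved more than other rows. Over all tested rows 17.5% were called lower and 27.2% higher in replicate 1. The summed levels of the markers were 322674 CPM in replicate 1 and 334987 CPM in replicate 2. Mir206 was at 1104 CPM in replicate 1 against 2050 CPM in replicate 2, Mir144 at 6877 against 9204 CPM and Mir143, a mesenchymal miRNA, at 15059 against 17326 CPM, whereas Mir122 was at 213274 against 214555 CPM. The 1 marker called higher was also mesenchymal, Mir214, at 816 CPM in replicate 1 against 602 CPM in replicate 2. The muscle marker Mir133b was at 14.8 against 12.2 CPM and was not called. Markers of 1 cell type thus went both ways. The part of the markers in the differences of the 5 genes was not tested.

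**Figure D5:**
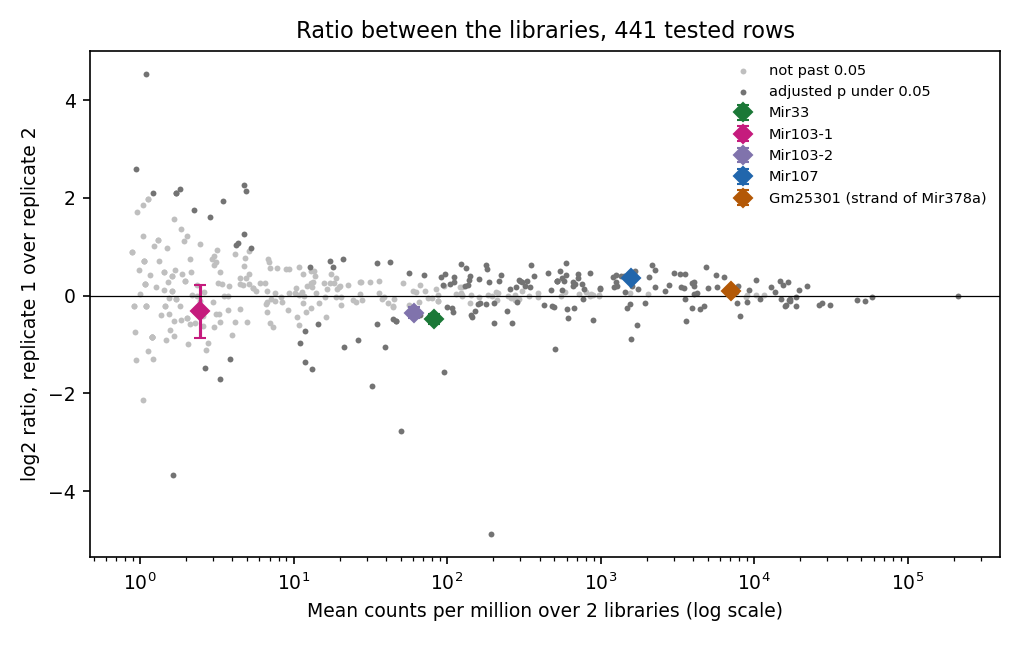
Log2 ratio of replicate 1 over replicate 2 (vertical axis) against mean CPM (horizontal axis, log scale) for the 441 tested rows, in dark grey where the adjusted p is under 0.05, with the 5 genes as diamonds and their counting SE as bars. Mir107 and the Gm25301 locus lie above 0, and Mir33, Mir103-1 and Mir103-2 lie below.

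The seed of miR-103-3p and miR-107-3p is offset by 1 base from that of the miR-15/16 group, cell-cycle miRNAs that share the run AGCAGC near the 5′ end. The run starts at base 1 in miR-103-3p and miR-107-3p and at base 2 in the miR-15/16 arms, shown here from RefSeq with the seed in capitals.
mmu-miR-322-5p: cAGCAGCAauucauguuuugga
mmu-miR-15a-5p: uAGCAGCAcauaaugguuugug
mmu-miR-16-5p: uAGCAGCAcguaaauauuggcg
mmu-miR-503-5p: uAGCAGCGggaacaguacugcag
The letters AGCAGC, searched on the mature strand only, stood within bases 1 to 8 of 15 of 1738 mature arms (0.863%). Outside the pantothenate kinase genes they were carried by 12 genes, of which 11 had a row and 7 had a mean of 1 CPM or more. These summed to 36471 CPM in replicate 1 and 34553 CPM in replicate 2, against 1838 and 1462 CPM for Mir103-1, Mir103-2 and Mir107 together. Mir322 led at 20331 and 18827 CPM, followed by Mir15a (8825 and 8939 CPM), Mir16-1 (3486 and 3648 CPM) and Mir15b (2677 and 1852 CPM). Mir16-2 was at 544 and 656 CPM and Mir503 at 401 and 460 CPM, both below Mir107 in both libraries. As miR-16-5p has 2 genomic copies, the counts of Mir16-1 and Mir16-2 may be low for the same reason as those of Mir103.

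Other miRNAs tied to cholesterol, lipid or glucose metabolism were read as a list of 36 genes, 35 of which had a row. All 35 reached 1 CPM in both libraries, 20 reached 100 CPM and 11 reached 1000 CPM. Over all 1973 rows 398, 178 and 83 did so. The median of the list was 214 CPM, against 38.9 CPM over the 441 tested rows and 81.7 CPM over the 5 genes. As the list was chosen with earlier results of these data known, its high level is not a result about metabolic miRNAs. Mir122, which supports cholesterol synthesis in hepatocytes, Mir26b (50959 and 55091 CPM) and Mir21a (18656 and 18974 CPM) were the highest. Mir29b-2 (1.35 and 1.18 CPM) and Mir378b were the lowest, and both have relatives with near-identical arms. Between the libraries, 16 of the 35 were called, 5 higher and 11 lower in replicate 1. That is 45.7%, beside 44.7% of all tested rows and 63.3% of those at 10 CPM or more. Over all tested rows, 27.2% were called higher and 17.5% lower in replicate 1. The gene of the list with the widest difference, chosen after its values were seen, was Mir802, a miRNA tied to insulin resistance in mouse liver. It was at 12.8 CPM in replicate 1 against 88.0 CPM in replicate 2 (log2 -2.77, counting SE 0.18, exact adjusted p = 3.20e-77). None of the 5 intronic genes differed between the pools by as much.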

How the data were processed

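Small RNA of the 2 liver pools was sequenced from total RNA, with the size range given in the labels as below 30, without a unit. Raw read counts per gene were deposited by the authors for each of 2 libraries, on assembly mm10 with GENCODE annotation M4 per the deposited text description. What aligned and counted the reads is not given in the sources used here. The tables held 1973 gene rows, 4 tally rows, left out of totals, and 3 columns of counts. The first equalled the sum of the other 2, 1 for each strand, in all rows. The first stranded column was used for 4 genes and the second for Gm25301. Of 14129766 and 12186088 reads tallied in replicates 1 and 2, 42.0% and 41.9% were counts in the first stranded column, 28.1% and 28.2% multimapping, 21.8% and 21.2% unmapped.

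Names, coordinates and hosts came from GENCODE M21 on the same assembly (1894 rows matched), and mature arms from RefSeq GRCm38.p6. Words were searched in all M21 miRNA genes on both strands. Genome-wide matches were not counted. The host transcript was the principal protein-coding isoform that spans the hairpin with the longest exons. CPM, exact Poisson and log2 values (0.5 added to each count) were computed with Python 3.11.15 and SciPy 1.17.1, and the threshold on adjusted p was 0.05. A quasi-likelihood test of replicate 1 against replicate 2 could not be fitted, because there are no replicates within a library. The exact test was tested on simulated data. Alternatives used edgeR 4.0.16 and DESeq2 1.42.0 scaling, other filters, strands, totals and pseudocounts. The 5 genes, the list of 36 genes, the markers and the rule for further named genes (the neighbours in level, the 6 highest genes with AGCAGC, the 3 highest and 2 lowest of the list) were chosen with earlier results of these data known. PCR copies are not independent molecules, so intervals, floors (3 counts for a count of 0) and SEs cover counting error only.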

Additional observations from a re-analysis of the deposited data

How the results depend on the processing

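Of 100 values recomputed under the alternatives, 91 kept their direction and call or moved by less than 1 SD, 8 moved further and 1 lost its call. The 91 include 12 values without replicate 1 and 12 without replicate 2. Leaving out 1 of 2 libraries cannot move a mean by 1 SD, so these were bound to be kept and show no stability. Leaving the most abundant gene out of the total set the means at 103.9 CPM for Mir33, 3.14 CPM for Mir103-1, 77.5 CPM for Mir103-2, 2019 CPM for Mir107 and 8949 CPM for the Gm25301 locus. Counts irrespective of strand set the locus at 6460 CPM, and the strand of the Gm25301 row itself set it at 0 CPM. Adding 1 in place of 0.5 to each count gave a log2 ratio of Mir103-2 over Mir103-1 of 4.53. With TMM scaling the log2 ratio of the Gm25301 locus between the libraries was 0.021 and was not called. The median log2 ratio of all tested rows shifted by -0.08 with TMM and -0.07 with DESeq2 size factors. The number of rows called was between 184 and 206 over all alternatives.

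With 2 libraries, leaving out 1 returns the value of the other, so the ranges given here repeat the replicate values. They were 68.3 to 95.1 CPM for Mir33, 2.19 to 2.74 for Mir103-1 and 53.6 to 68.2 for Mir103-2. For Mir107 the range was 1392 to 1782 CPM, and for the Gm25301 locus 6795 to 7275 CPM. The log2 ratios ranged from 4.35 to 5.05 for Mir107 over Mir103-2, 4.56 to 4.59 for Mir103-2 over Mir103-1, 8.94 to 9.61 for Mir107 over Mir103-1, 2.03 to 2.29 for the locus over Mir107, 3.87 to 4.70 for Mir107 over Mir33, 6.16 to 6.73 for the locus over Mir33 and 0.35 to 0.48 for Mir33 over Mir103-2. No paired analysis was possible because there is 1 group. Depth limits Mir103-1, with 27 counts in all.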
